A study of Homo sapiens with 6 samples.

Results

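The genes that encode collagen chains, together with the enzymes and the chaperone that modify, process and cross-link collagen, were examined in U87, an established glioblastoma line of human origin for which the sample labels name no engineered allele. Chains were taken as all genes with a symbol of the form COL, number, A, number, and to these were added the 5 lysyl oxidases (LOX and LOXL1 to LOXL4), the lysyl hydroxylases PLOD1 to PLOD3, the prolyl 4-hydroxylase subunits P4HA1 to P4HA3, the prolyl 3-hydroxylase P3H1, the chaperone SERPINH1 and the propeptide-processing genes BMP1, PCOLCE and ADAMTS2. This named 59 of the 60671 genes in the expression table, 43 chains and 16 other genes. Of these, 39 reached a TPM value, the length-scaled share of a library's transcripts, of 1 in at least 1 library and were kept, 24 chains and 15 other genes. Levels were measured by RNA-Seq in 3 libraries of cells exposed to 100 µM rutaecarpine, an alkaloid of Evodia rutaecarpa, for 48 h and in 3 libraries of cells exposed to the solvent alone, 0.1% DMSO. According to the study's methods, compounds were diluted in medium without serum. The comparison addressed how rutaecarpine, studied as a ligand of the aryl hydrocarbon receptor (AhR), altered expression in these cells. Replicate numbers came from the labels, which do not say whether the libraries came from separate cultures, so p-values measure only the spread between these samples, which may be technical.

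Collagens are secreted proteins in which chains wind around each other into a rod, either as copies of a single chain or as defined mixtures such as COL1A1 with COL1A2 in type I collagen. Within the endoplasmic reticulum, prolyl hydroxylases stabilise the rod, lysyl hydroxylases prepare lysines for sugar addition and cross-linking, and SERPINH1 (HSP47) escorts the folded molecule. Outside the cell, proteinases remove the end propeptides of fibril-forming collagens and lysyl oxidases start the covalent cross-links that make the matrix insoluble, and in glioblastoma such a matrix is known mainly around vessels and in tumours of mesenchymal character.

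The TPM values carry no sequencing depth, so no counting error could be attached to them. Control replicate 3 stood apart from the other 5 libraries, with a median log2(TPM + 1) of 3.56 over the tested genes against 3.81 to 4.00 elsewhere and a library weight in limma of 0.121 against 0.611 to 2.49. The gap was related to transcript length. Among the 18 tested members whose longest annotated transcript exceeds 5000 bases, control replicate 3 lay below both other controls for 15, with a median of 65.5% of their mean, whereas among the 18 shorter members it did so for 9, with a median of 91.4%. Across genes, which share the library and are not replicates, Spearman's rho between this deviation and transcript length was -0.45 over the 36 tested members and -0.49 over 14267 genes. Results are therefore given with and without this library where it matters, and its part in them is shown by those values. CYP1B1, a cytochrome induced through AhR, rose from 70.0 ± 23.6 to 389.6 ± 47.3 TPM (SD, n = 3 each), as a check of the labels. Of 6 glial markers, S100B and SOX2 were below 1 TPM in every library, and GFAP (3.48 to 5.41 TPM), OLIG2 (1.48 to 4.11 TPM, rose), SOX9 (7.97 to 13.5 TPM) and NES (12.3 to 21.0 TPM, fell) were above it, while 6 of 7 mesenchymal markers, with VIM and FN1 foremost, were at 1 TPM or more throughout. The calls of OLIG2 and NES each held in only 1 of the 6 fits that left out a library, that without control replicate 3. No epithelial or endothelial marker reached 1 TPM in all libraries. Of 3 blood cell markers PTPRC and HBB were below 1 TPM in all libraries, and CD68 was at 452 to 511 TPM in the controls and at 319 to 357 TPM after rutaecarpine. The summed level of the 7 mesenchymal markers moved with the treatment, from 12480 to 15210 TPM in the controls to 8653 to 9343 TPM after rutaecarpine. That move was carried by VIM and FN1, which fell, whereas CD44, PDGFRB, TWIST1 and S100A4 did not pass the test and THY1 was not tested, and its part in the results for the members was not tested.

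**Figure D1:**
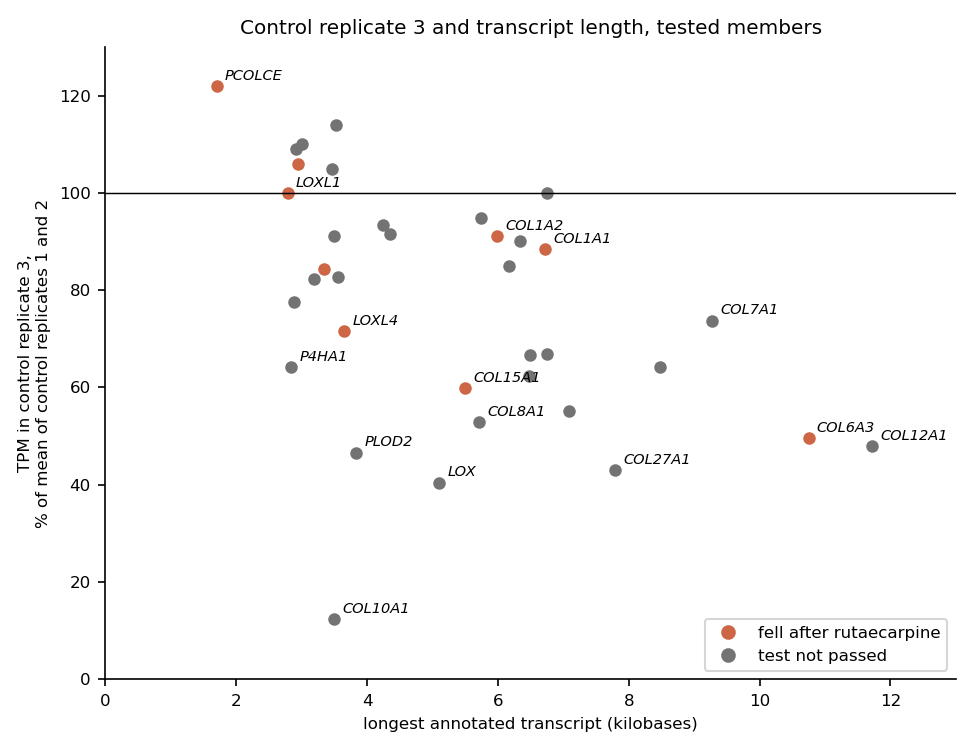
TPM in control replicate 3 as a percentage of the mean of control replicates 1 and 2 (y axis) against the length of the longest annotated transcript in kilobases (x axis), 1 point for each of the 36 tested members, with the horizontal line at 100%. COL6A3 and COL12A1, with the longest transcripts, lie at 49.6% and 47.9%, PCOLCE, with the shortest, at 122%, and LOX, PLOD2 and COL10A1 at 40.4%, 46.6% and 12.3%.

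Of the 36 members that passed the expression filter and were tested, 9 fell, none rose and 27 did not pass the test (limma on log2(TPM + 1), Benjamini-Hochberg adjusted p of at most 0.05 over 14377 genes). The 9 were the chains COL1A1, COL1A2, COL6A3 and COL15A1, the hydroxylases P4HA2 and PLOD1, the propeptidase enhancer PCOLCE and the cross-linking oxidases LOXL1 and LOXL4. Over all genes tested, 4.68% fell and 4.60% rose. With a log2 fold change beyond 1 in addition, 7 members fell and none rose, against 1.50% and 2.01% of all genes. Beside the count of none that rose, 1 member, COL5A3, was higher at an unadjusted p under 0.05 in limma, and 15 were lower. COL5A3 passed the test in limma without a variance trend and with library weights, but all its controls were under 1 TPM, so it met the expression filter only through the group in which it was higher, and nothing is drawn from its test.

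The median log2 fold change was -0.32 over the 36 tested members and 0.08 over all tested genes, and 28 members had a negative value. In 15 members every rutaecarpine library lay below every control library, and in 2, COL5A3 and COL22A1, which met the filter through their rutaecarpine libraries, every one lay above, while the same held for 14.0% and 19.3% of all tested genes. On the log2(TPM + 1) scale, the 3 largest differences among such members that missed the test were those of COL8A1 (-0.79), COL5A3 (0.56) and ADAMTS2 (-0.47). That order depends on the pseudocount, which shrinks differences of low genes. With a pseudocount of 0.1 the values were 0.977 for COL5A3, -0.825 for COL8A1, 0.783 for COL22A1 and -0.501 for ADAMTS2. Without control replicate 3, 18 members fell and none rose, against 10.3% and 8.20% of all genes, and the members' median was -0.46 with a median over all genes of -0.01. The members added without that library were COL5A1, COL5A2, COL8A1, COL12A1, COL13A1, COL16A1, LOX, PLOD2 and P4HA1, and the 9 that fell with all libraries were retained. In bulk libraries, less RNA of a gene in every cell and fewer cells that express it cannot be told apart.

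**Figure D2:**
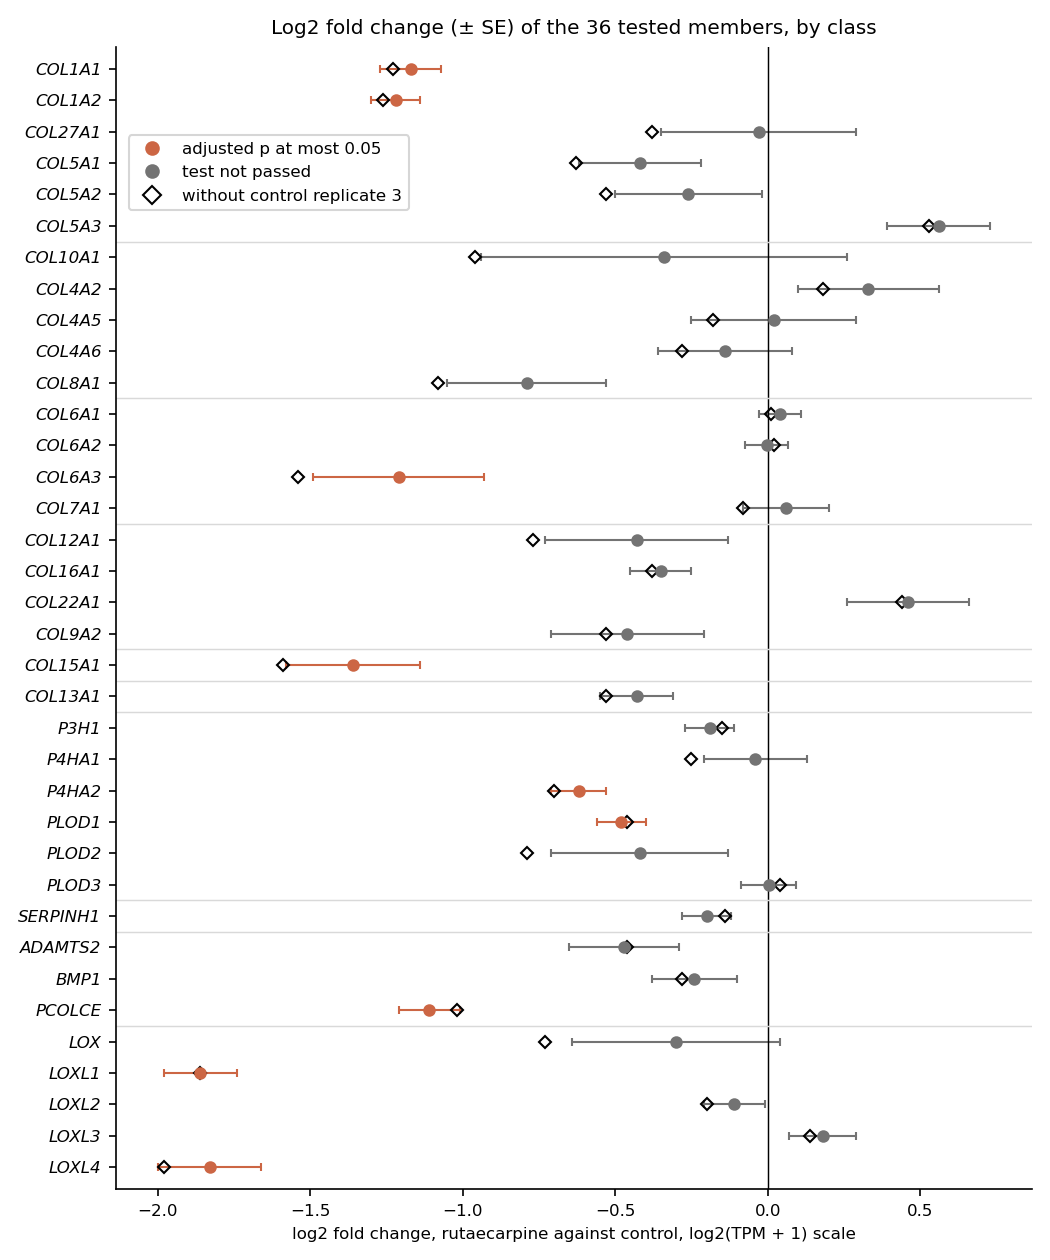
Log2 fold change on the log2(TPM + 1) scale (x axis, rutaecarpine against control, ± SE) of the 36 tested members, grouped by class with grey lines between classes, where filled circles give the fit to all 6 libraries and open diamonds the fit without control replicate 3. The 9 members that fell range from -1.86 (LOXL1) to -0.48 (PLOD1), and the diamonds of COL8A1, LOX and PLOD2 lie at -1.08, -0.73 and -0.79, to the left of their circles at -0.79, -0.30 and -0.42.

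Among the fibril-forming chains, both chains of type I collagen, the main fibrillar collagen of skin, bone and tendon, were lower in every rutaecarpine library. COL1A1 was at 318, 297 and 272 TPM in the controls and at 142, 119 and 131 TPM after rutaecarpine. COL1A2 was at 371, 369 and 337 TPM in the controls and at 158, 147 and 156 TPM after rutaecarpine. The groups did not overlap for either chain, and the lowest control was well above the highest treated library. The log2 fold changes were -1.17 (SE 0.10) for COL1A1 and -1.22 (SE 0.08) for COL1A2 (limma, Benjamini-Hochberg adjusted p = 0.000962 and 0.000356). Leaving out any 1 library did not end either call. COL1A1 lies on chromosome 17 (50183289 to 50201632, minus strand) and COL1A2 on chromosome 7 (94394561 to 94431232, plus strand) of GRCh38, so the pair is not linked. The ratio of COL1A1 to COL1A2 stayed between 0.806 and 0.901 in all 6 libraries.

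The remaining fibrillar chains gave values that did not pass the test. COL5A1, a chain of the type V collagen that nucleates and limits the width of type I fibrils, was at 74.0, 68.6 and 45.8 TPM in the controls and at 52.4, 40.2 and 45.6 TPM after rutaecarpine. The groups overlapped through control replicate 3 alone. With all libraries the log2 fold change was -0.42 (SE 0.20, limma, Benjamini-Hochberg adjusted p = 0.249), and without that library it was -0.63 (limma, Benjamini-Hochberg adjusted p = 0.0106). Its partner COL5A2 averaged 30.5 ± 9.36 TPM in the controls and 24.6 ± 2.86 TPM after rutaecarpine (SD, n = 3 each), with control replicate 3 at 55.1% of the other controls. COL5A3, a less common type V chain, was at 0.68 to 0.87 TPM in the controls and at 1.39 to 1.86 TPM after rutaecarpine, levels near the filter limit. COL27A1 had a log2 fold change of -0.03 (SE 0.32), with control values spread from 4.01 to 10.4 TPM. COL11A1 reached 1 TPM in only 2 libraries and was not tested.

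The microfibrillar type VI collagen is assembled from COL6A1, COL6A2 and one further chain, which is COL6A3 in most tissues. In U87 cells the 3 were the most abundant chains, and only COL6A3 fell. COL6A2 was at 1012, 1021 and 1065 TPM in the controls and at 1052, 1042 and 998 TPM after rutaecarpine. COL6A1 was at 695, 663 and 633 TPM in the controls and at 715, 653 and 685 TPM after rutaecarpine. The groups overlapped fully for both, and the log2 fold changes were -0.0029 (SE 0.07) and 0.04 (SE 0.07). Their signs turned with other settings, and the values were within 0.1 of 0 in each setting.

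COL6A3 was at 743, 734 and 366 TPM in the controls and at 281, 207 and 277 TPM after rutaecarpine. Every treated library was below every control, but control replicate 3 lay between the other controls and the treated libraries. The log2 fold change was -1.21 (SE 0.28, limma, Benjamini-Hochberg adjusted p = 0.0427), and this call held in only 1 of the 6 fits that left out a library, the fit without control replicate 3, where the value was -1.54 (limma, Benjamini-Hochberg adjusted p = 0.000434). Across the other 5 fits it missed the test, while over all 6 fits the log2 fold change lay between -1.54 and -1.03. COL6A3 (chromosome 2, 237324003 to 237414375, minus strand) has a longest transcript of 10749 bases, whereas those of COL6A1 and COL6A2, both on chromosome 21, have 4238 and 3461 bases. After the length and GC correction its log2 fold change was -1.25 (limma, Benjamini-Hochberg adjusted p = 0.00619). The abundance order of the members changed accordingly: COL6A2, LOXL2 and COL6A1 held ranks 1 to 3 in both groups, and COL6A3 went from rank 4 to rank 5. COL7A1, the anchoring fibril chain that ties basement membranes to the tissue beneath, was at 172, 147 and 117 TPM in the controls and at 146, 156 and 148 TPM after rutaecarpine. These groups overlapped.

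COL15A1, whose product is a proteoglycan collagen that bridges basement membranes and fibrils, fell. It was at 27.0, 26.8 and 16.1 TPM in the controls and at 8.47, 7.54 and 8.73 TPM after rutaecarpine. The groups did not overlap, and the treated libraries lay close together. The log2 fold change was -1.36 (SE 0.22, limma, Benjamini-Hochberg adjusted p = 0.00995), and it passed the test in 5 of the 6 fits that left out a library, the exception being the fit without rutaecarpine replicate 2. The gene is on chromosome 9 (98943179 to 99070792, plus strand). COL18A1, the other collagen of this kind and the source of endostatin, was below 1 TPM in every library.

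None of the 5 tested basement membrane and network chains passed the test in limma, 1 of them, COL8A1, was lower at an unadjusted p under 0.05, and the same gene passed with library weights. COL8A1, a short-chain network collagen, was the most abundant of them in the controls, with 27.3 ± 8.96 TPM against 14.8 ± 2.40 TPM after rutaecarpine (SD, n = 3 each). Its groups did not overlap. The log2 fold change was -0.79 with all libraries (SE 0.26, limma, Benjamini-Hochberg adjusted p = 0.124) and -1.08 without control replicate 3 (limma, Benjamini-Hochberg adjusted p = 0.00298). COL4A5 and COL4A2, chains of the type IV collagen of basement membranes, averaged 9.51 and 3.61 TPM in the controls and 9.80 and 4.80 TPM after rutaecarpine, with overlapping groups. Type IV collagen usually pairs COL4A1 with COL4A2, yet COL4A1 did not exceed 0.04 TPM in any library, while COL4A2 lay between 2.71 and 6.11 TPM. The genes lie on opposite strands of chromosome 13. Their RefSeq starts (GRCh38.p14) are 126 bases apart, and their GENCODE 29 spans, COL4A1 ending at 110307233 and COL4A2 starting at 110305812, overlap.

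Of the fibril-associated collagens with interrupted helices (FACIT), 4 were tested in limma and none passed, with 1, COL16A1, lower at an unadjusted p under 0.05 and with COL12A1 and COL16A1 past the test under library weights. COL16A1, found at the edge of fibrils and basement membranes, was at 55.4, 48.7 and 49.4 TPM in the controls and at 37.8, 39.5 and 42.1 TPM after rutaecarpine. The groups did not overlap (log2 fold change -0.35, SE 0.10; limma, Benjamini-Hochberg adjusted p = 0.0739). COL12A1, which lies along type I fibrils, averaged 22.2 ± 8.10 TPM in the controls and 15.6 ± 2.89 TPM after rutaecarpine (SD, n = 3 each). The groups overlapped through control replicate 3 alone. The log2 fold change was -0.43 with all libraries (SE 0.3) and -0.77 without that library (limma, Benjamini-Hochberg adjusted p = 0.421 and 0.0162). The last 2, COL9A2 and COL22A1, stayed below 4 TPM, and the groups of COL22A1 did not overlap, with the treated libraries higher. The cell-surface collagen COL13A1, a membrane-spanning chain, averaged 46.2 ± 5.52 and 33.8 ± 2.12 TPM without overlap (log2 fold change -0.43, SE 0.12; limma, Benjamini-Hochberg adjusted p = 0.0701).

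Of the 15 tested genes that are not chains, 5 fell and none rose, against 4.68% and 4.60% of all genes. In limma without a variance trend and with library weights none of them rose either, and none was higher at an unadjusted p under 0.05. Among the 6 hydroxylases, P4HA2 and PLOD1 fell. P4HA2, a catalytic subunit of the prolyl 4-hydroxylase on which the stability of the rod depends, was at 383, 384 and 324 TPM in the controls and at 238, 238 and 230.03 TPM after rutaecarpine. The treated libraries were nearly equal and all lower (log2 fold change -0.62, SE 0.09; limma, Benjamini-Hochberg adjusted p = 0.00651). The alternative subunit P4HA1 was at 127, 127 and 81.5 TPM in the controls and at 109, 107 and 103 TPM after rutaecarpine. Here the treated values lay between control replicate 3 and the other controls, and the log2 fold change was -0.04 with all libraries (SE 0.17) and -0.25 without control replicate 3 (limma, Benjamini-Hochberg adjusted p = 0.901 and 0.0328). P4HA2 (chromosome 5, 132191838 to 132295315, minus strand) passed in all 6 fits that left out a library.

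Of the 3 lysyl hydroxylases only PLOD1 fell with all libraries. PLOD1, which acts mainly on the helical part of fibrillar collagens, was at 426, 417 and 446 TPM in the controls and at 333, 287 and 302 TPM after rutaecarpine. The groups did not overlap (log2 fold change -0.48, SE 0.08; limma, Benjamini-Hochberg adjusted p = 0.0128). That call was lost without control replicate 1, rutaecarpine replicate 2 or rutaecarpine replicate 3, and when libraries were centred on their medians (limma, Benjamini-Hochberg adjusted p = 0.073). PLOD2, which hydroxylates the telopeptides at the chain ends, was at 418, 387 and 188 TPM in the controls and at 250.3, 219.9 and 228 TPM after rutaecarpine. Control replicate 3 was the lowest of all 6 libraries, and the log2 fold change moved from -0.42 (SE 0.29) to -0.79 without it (limma, Benjamini-Hochberg adjusted p = 0.411 and 0.000715). PLOD3, which also adds sugars to hydroxylysine, was at 88.4, 89.1 and 96.8 TPM in the controls and at 98.1, 90.6 and 86.2 TPM after rutaecarpine, and its groups overlapped.

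P3H1, which modifies a single proline in type I chains, was at 86.2, 84.4 and 93.5 TPM in the controls and at 76.5, 76.2 and 78.0 TPM after rutaecarpine. SERPINH1 was at 172, 180.1 and 200.5 TPM in the controls and at 159, 161 and 161 TPM after rutaecarpine. Both were lower without overlap, by small amounts that did not pass the test (log2 fold change -0.19 and -0.20, SE 0.08 each; limma, Benjamini-Hochberg adjusted p = 0.203 and 0.197). SERPINH1 thus stayed near its control level while the type I chains it escorts fell, and its ratio to COL1A1 was 0.543, 0.606 and 0.737 in the controls and 1.12, 1.35 and 1.23 after rutaecarpine.

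Of the propeptide-processing genes, PCOLCE fell. Its product is a secreted protein with no enzyme activity of its own that speeds up removal of the C-propeptide by BMP1. PCOLCE was at 338, 341 and 414 TPM in the controls and at 176, 166 and 160.03 TPM after rutaecarpine. The groups were far apart, and control replicate 3 was the highest library (log2 fold change -1.11, SE 0.10; limma, Benjamini-Hochberg adjusted p = 0.00122). The gene is on chromosome 7 (100602177 to 100608175, plus strand), and 16.6% of its exonic bases are shared with PCOLCE-AS1 on the opposite strand, which averaged 0.457 and 0.34 TPM. The proteinase BMP1 averaged 42.2 ± 2.39 TPM in the controls and 36 ± 5.71 TPM after rutaecarpine, with overlap, and ADAMTS2, which removes N-propeptides, averaged 15.0 ± 0.841 and 10.8 ± 2.50 TPM without overlap (SD, n = 3 each). Neither passed the test.

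The lysyl oxidases held both the largest fall on the log2(TPM + 1) scale, that of LOXL1, and a member among the most abundant genes that did not pass. With a pseudocount of 0.1 the fall of LOXL4 was the larger, at -2.07 against -1.87 for LOXL1. LOXL1, which cross-links elastin as well as collagen, was at 568, 571 and 570.3 TPM in the controls and at 187, 148 and 136 TPM after rutaecarpine. The controls agreed closely and every treated library was lower. The log2 fold change was -1.86 (SE 0.12, limma, Benjamini-Hochberg adjusted p = 0.000434), LOXL1 passed in all 6 fits that left out a library, and its abundance rank among the members went from 5 to 10. LOXL1 (chromosome 15, 73925989 to 73952137, plus strand) shares 335 exonic bases, 9.2% of its total, with LOXL1-AS1 on the opposite strand. LOXL1-AS1 fell as well, from 40.3 ± 5.09 to 19.4 ± 1.25 TPM (SD, n = 3 each; log2 fold change -1.02, SE 0.13; limma, Benjamini-Hochberg adjusted p = 0.00436), and since whether reads were counted by strand is not given in the sources used here, reads of the shared stretch cannot be told apart.

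LOXL4, a less abundant oxidase with scavenger receptor domains, was at 16.6, 16.7 and 11.9 TPM in the controls and at 3.46, 3.46 and 3.51 TPM after rutaecarpine. The treated libraries were almost identical and far below the controls (log2 fold change -1.83, SE 0.17; limma, Benjamini-Hochberg adjusted p = 0.00149). LOXL4 lies on chromosome 10 (98247690 to 98268250, minus strand) and passed in all 6 fits that left out a library. LOXL2, the most abundant oxidase, was at 861, 856 and 709 TPM in the controls and at 802, 733 and 703 TPM after rutaecarpine. Its groups overlapped (log2 fold change -0.11, SE 0.10). LOXL3, which shares exonic bases with HTRA2 (14.3%) and DOK1 (5.0%) on the opposite strand, was at 85.8, 69.8 and 71.0 TPM in the controls and at 91.1, 82.3 and 82.2 TPM after rutaecarpine, also with overlap. The prototype enzyme LOX was at 232, 229.98 and 93.4 TPM in the controls and at 158, 125 and 137 TPM after rutaecarpine. Control replicate 3 was the lowest LOX value of all, and the log2 fold change was -0.30 with it (SE 0.34) and -0.73 without it (limma, Benjamini-Hochberg adjusted p = 0.629 and 0.00309).

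**Figure D3:**
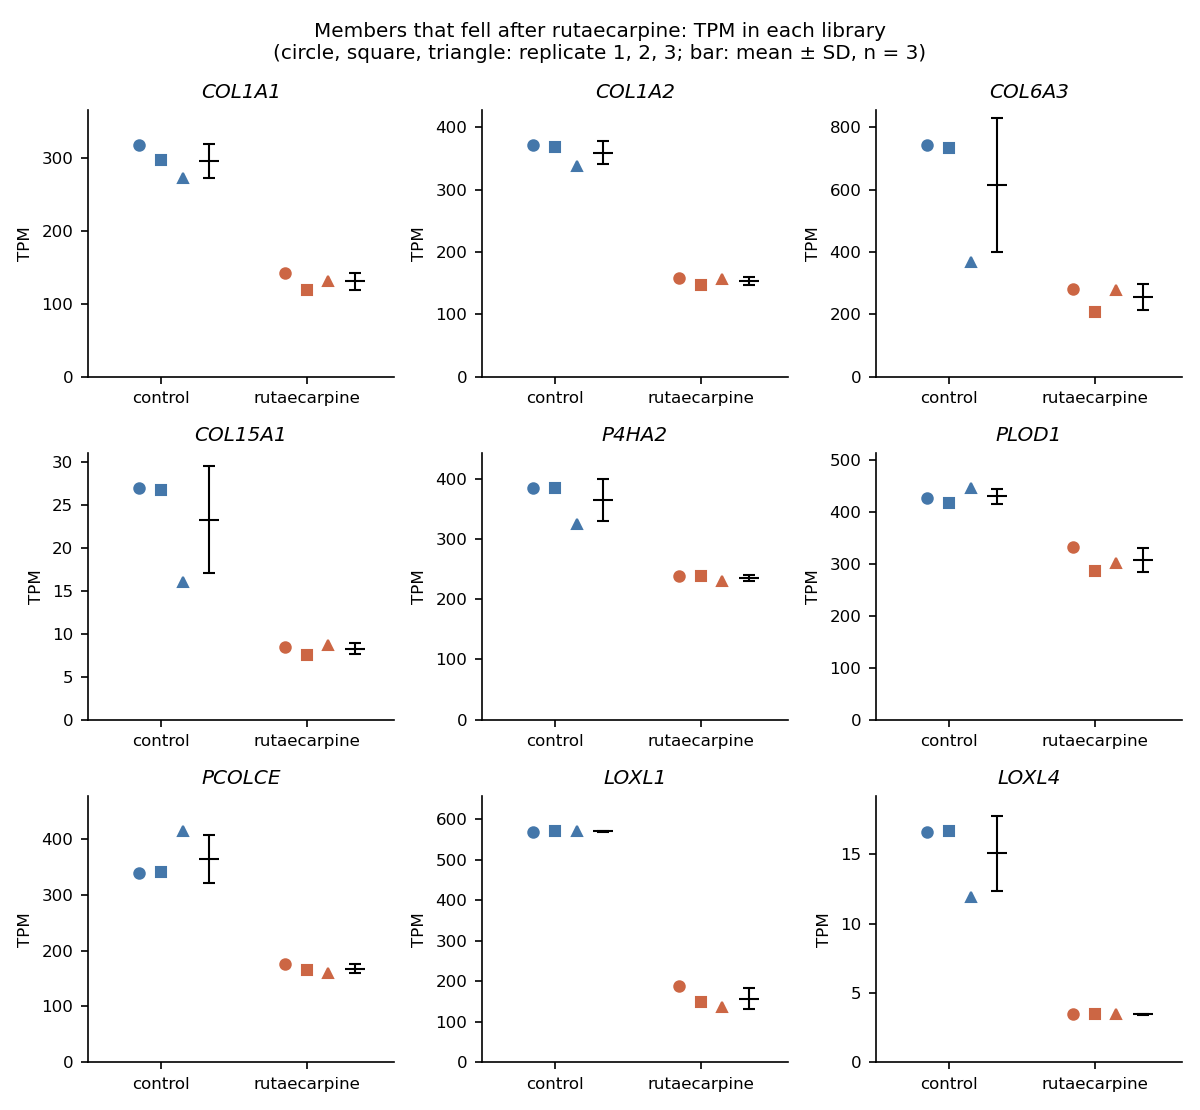
TPM (y axes, from 0) in each control and rutaecarpine library for the 9 members that fell, with replicates 1, 2 and 3 as circle, square and triangle and the mean ± SD (n = 3) as a bar beside each group. The groups do not overlap in any panel, the control libraries of LOXL1 lie between 568 and 571 TPM, and control replicate 3 lies at 49.6% of the mean of the other controls for COL6A3, 59.8% for COL15A1 and 122% for PCOLCE.

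Ratios of partner members within a library do not depend on how the library as a whole was scaled. Of 8 pairs compared, 3 had ratios that did not overlap between the groups. COL6A3 per COL6A1 was 1.07, 1.11 and 0.579 in the controls and 0.393, 0.317 and 0.404 after rutaecarpine, a log2 difference of -1.25 that was -1.56 without control replicate 3. P4HA1 per P4HA2 was 0.331, 0.33 and 0.251 in the controls and 0.458, 0.451 and 0.448 after rutaecarpine. The log2 difference was 0.58 with all libraries and 0.45 without control replicate 3. The last of the 3 was SERPINH1 per COL1A1, with a log2 difference of 0.98 that was 1.1 without control replicate 3. Each of these gave p = 0.1 in a two-sided exact permutation test over the libraries, which is the smallest value that 3 against 3 allows, and 0.267 after Benjamini-Hochberg adjustment over the 8 pairs.

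The other 5 pairs overlapped. The log2 differences were 0.05 for COL1A1 per COL1A2, 0.05 for COL6A1 per COL6A2, 0.22 for COL4A5 per COL4A6, -0.16 for COL5A1 per COL5A2 and 0.06 for PLOD2 per PLOD1 (exact permutation p = 0.5, 0.7, 0.2, 0.2 and 1.0). PLOD2 per PLOD1 was 0.981 and 0.928 in control replicates 1 and 2 and 0.421 in control replicate 3, so the difference was -0.33 without that library.

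**Figure D4:**
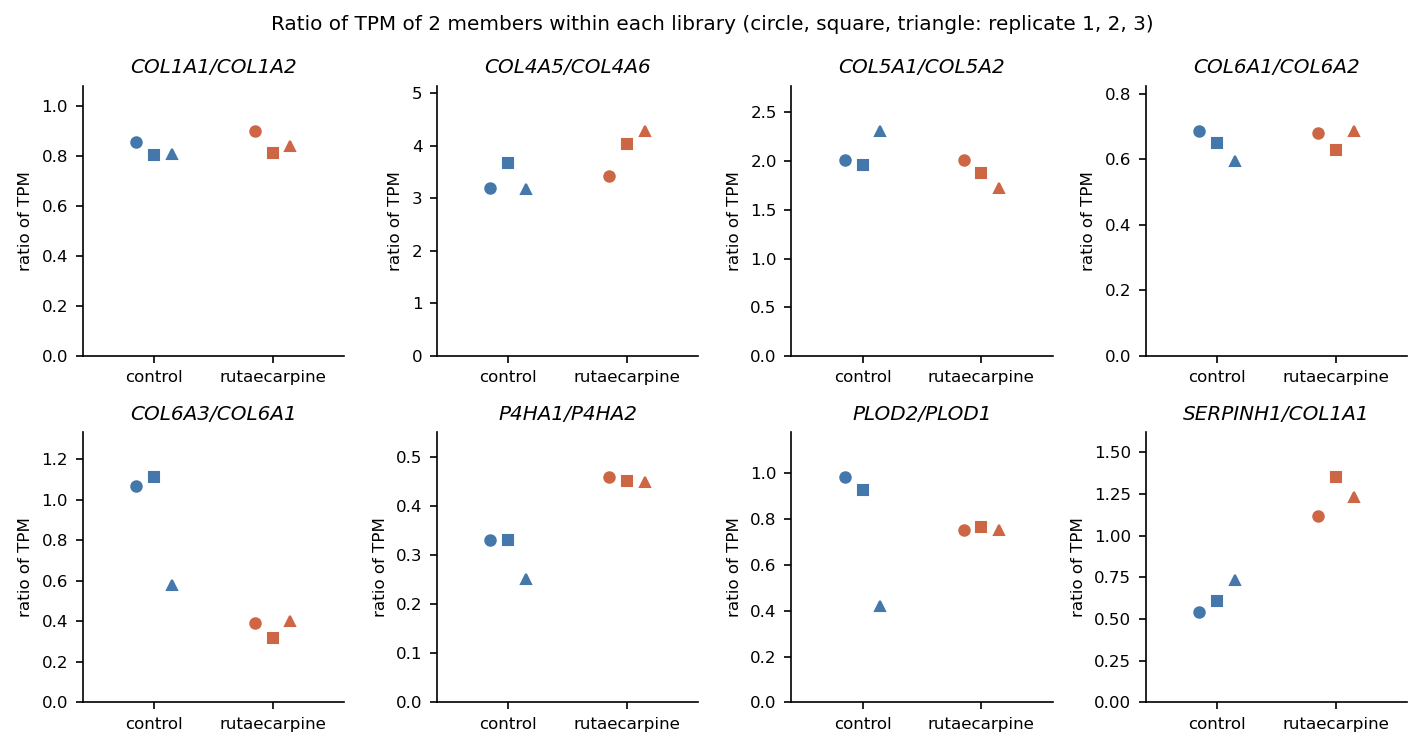
Ratio of the TPM of 2 members in each library (y axes, from 0) for the 8 pairs compared, with replicates 1, 2 and 3 as circle, square and triangle. COL1A1/COL1A2 stays between 0.806 and 0.901 in all libraries, COL6A3/COL6A1 falls to 0.317 to 0.404 after rutaecarpine, and SERPINH1/COL1A1 goes from at most 0.737 to at least 1.12.

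Summed over the 59 genes, the members made up 0.502% to 0.759% of each library, with 7532, 7366 and 6371 TPM in the controls and 5456, 4994 and 5085 TPM after rutaecarpine. The treated sum was 73.0% of the control sum. The classes shared unequally in this, with the fibrillar chains at 48.1% of their control sum (758.5 ± 68.8 to 364.7 ± 27.2 TPM), the propeptide-processing genes at 50.7% (421.7 ± 40.9 to 213.9 ± 11.2 TPM) and the cross-linking oxidases at 68.4% (1654 ± 172 to 1132 ± 96.9 TPM; SD, n = 3 each). Most of the fall lay in COL1A1 and COL1A2 among fibrillar chains, in PCOLCE among processing genes and in LOXL1 among oxidases. The median log2 fold changes of the tested members were -0.34, -0.47 and -0.30, in the same order. The single multiplexin COL15A1 carried its class to 35.6%, the FACIT chains were at 73.5%, the transmembrane collagens at 72.1%, the hydroxylases at 74.2% and the chaperone at 86.9%. The sums of the classes named so far did not overlap between the groups. The type VI, VII and related chains were at 86.3% (2621, 2565 and 2182 TPM in the controls, 2195, 2058 and 2108 TPM after rutaecarpine). The basement membrane and network chains were at 74.0% (60.2, 53.4 and 30.2 TPM in the controls, 37.5, 29.7 and 39.1 TPM after rutaecarpine). Both overlapped through control replicate 3 alone. In the type VI and VII class COL6A3 averaged 614 and 255 TPM, while COL6A1, COL6A2 and COL7A1 did not pass the test. Exact permutation tests gave p = 0.1 for each sum without overlap, 0.2 for the type VI and VII chains and 0.3 for the network chains.

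AhR, once bound by a ligand, pairs with ARNT and binds DNA at a dioxin response element. The core of that element reads GCGTG, which on the opposite strand is CACGC. The 250 bases before each RefSeq transcript start were therefore searched for the core on both strands, in RefSeq sequences of GRCh38.p14. Sequences were matched for 31 of the 39 members; COL1A1, COL1A2, COL5A2, COL6A1, COL8A1, COL22A1, BMP1 and LOXL2 had no entry. The core was present in 14 of the 31 (45.2%), against 36.2% of 27305 genes and 32.2% of all 35116 sequences. It was present in 3 of the 7 members that fell and had an entry (42.9%) and in 9 of the 21 that did not pass the test (42.9%), so the share was equal. The 3 that fell were COL15A1, PCOLCE and PLOD1, with 2 cores each. The stretches around those cores are shown because they are the only such matches among the 7 members that fell and had an entry. COL1A1 and COL1A2 also fell but could not be searched here. The paper lists both among its down-regulated genes, with qPCR changes in the same direction, and reports putative elements in both promoters. Its search used a longer core sequence and a longer stretch, so its matches and those given here are not the same measure. The printed stretches are written on the plus strand, along which all 3 genes are read, with the core in capitals. They lie at chr9:98943768-98943796 and chr9:98943805-98943833 for COL15A1, at chr7:100602267-100602295 and chr7:100602315-100602343 for PCOLCE, and at chr1:11934637-11934665 and chr1:11934680-11934708 for PLOD1. All of these stretches lie before the RefSeq start but inside the GENCODE 29 span of the same gene, which begins farther upstream, at 98943179 for COL15A1, 100602177 for PCOLCE and 11934205 for PLOD1.
COL15A1, 127 bases before the RefSeq start: agggggaaagggGCGTGgggaggcggccg
COL15A1, 90 bases before the RefSeq start: ggtatcccccggGCGTGagtgcgcagcgc
PCOLCE, 84 bases before the RefSeq start: gaggtcccaggaCACGCcactgtcccgcc
PCOLCE, 36 bases before the RefSeq start: ctggccagtcccCACGCccacacacccaa
PLOD1, 68 bases before the RefSeq start: gcgcgggggaggGCGTGgaggggcggggt
PLOD1, 25 bases before the RefSeq start: ggcgggcccagtGCGTGgcagcgggacct

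The 250 bases before the RefSeq starts of LOXL1, LOXL4, COL6A3 and P4HA2 held no core. A match is a run of letters and was not tested for binding.

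Beyond the members, a list of 74 other genes of collagen folding, export, assembly, adhesion and breakdown was examined, of which 56 were tested. In this list 11 fell, 9 rose and 36 did not pass the test, with a median log2 fold change of 0.01 and with 4.68% lower and 4.60% higher over all genes. Without control replicate 3, 14 fell and 11 rose, against 10.3% and 8.20% of all genes. The removal of any other library left 8 to 10 calls, with 3 to 4 falls and 5 to 7 rises. The share over all genes was not counted for those fits. Of the 14 folding and modification genes, 4 fell, none rose and 10 did not pass in limma, although 1 of them, TMEM38B, was higher at an unadjusted p under 0.05 and passed without control replicate 3. FKBP7, a prolyl isomerase of the endoplasmic reticulum, fell (log2 fold change -0.88, SE 0.12), and so did FKBP10, P3H3 and CRTAP, by 0.39, 0.53 and 0.50 on the log2 scale, each of which lost its call in at least 4 of the 6 fits that left out a library. P4HB, the partner subunit of P4HA1 and P4HA2, averaged 1418 ± 28.8 TPM in the controls and 1300.0 ± 18.1 TPM after rutaecarpine, and PPIB, the cyclophilin bound to P3H1 and CRTAP, averaged 973 ± 152 and 918 ± 73.3 TPM (SD, n = 3 each). Neither passed the test.

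Of the 13 tested genes of collagen breakdown and its control, 5 rose and 4 fell, against 4.60% and 4.68% of all genes. The interstitial collagenase MMP1 rose from 4.13 ± 0.431 to 15.4 ± 0.896 TPM (log2 fold change 1.68, SE 0.15; limma, Benjamini-Hochberg adjusted p = 0.00108), and the membrane-bound collagenase MMP14 rose from 312.8 ± 33.7 to 667 ± 35.7 TPM (log2 fold change 1.09, SE 0.10; limma, Benjamini-Hochberg adjusted p = 0.00122). CTSL, a lysosomal proteinase, rose from 320.5 ± 15.9 to 695 ± 30.5 TPM (log2 fold change 1.12, SE 0.07; SD, n = 3 each). All 3 passed in every fit that left out a library. The proteinase inhibitor TIMP1 rose too, from 2587 ± 322 to 4926 ± 565 TPM (log2 fold change 0.93, SE 0.12; limma, Benjamini-Hochberg adjusted p = 0.00532), a call that missed the test when libraries were centred on their medians (limma, Benjamini-Hochberg adjusted p = 0.0908), and TIMP3 was the fifth to rise. CTSK, CTSB, TIMP2 and the fibroblast proteinase FAP fell, FAP by 0.71 on the log2 scale (SE 0.13), with a call held only without control replicate 3 among the 6 fits that left out a library. The gelatinase MMP2 averaged 1878 ± 102 TPM in the controls and 1723 ± 170.3 TPM after rutaecarpine and did not pass the test.

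Fibril partners and receptors moved in both directions. FN1, the fibronectin on which collagen is laid down, fell from 6025 ± 895 to 3241 ± 367 TPM (log2 fold change -0.89, SE 0.14), and SPARC, a collagen-binding matricellular protein, fell from 516 ± 66.7 to 331 ± 21.0 TPM (log2 fold change -0.63, SE 0.11), the latter held in only 1 of the 6 fits that left out a library, that without control replicate 3. The small proteoglycan LUM, which spaces fibrils, rose from 25.3 ± 4.16 to 66.3 ± 2.52 TPM (log2 fold change 1.37, SE 0.13; SD, n = 3 each), and TNXB rose (log2 fold change 0.67, SE 0.15). The collagen receptor subunits diverged, since ITGA11 rose (4.06 ± 0.396 to 13.6 ± 4.43 TPM, log2 fold change 1.48, SE 0.25) and ITGA10 fell (4.63 ± 1.19 to 1.27 ± 0.557 TPM, log2 fold change -1.32, SE 0.26), and ITGA2 was higher without overlap but did not pass (14.9 ± 7.64 and 33.6 ± 9.10 TPM, log2 fold change 1.24, SE 0.43; limma, Benjamini-Hochberg adjusted p = 0.137). With 1 library removed at a time, ITGA11 passed in 3 of the 6 fits, and ITGA10, TNXB, TIMP2, TIMP3 and CTSB in 1 each, that without control replicate 3. Among the 10 export genes MIA2, whose product helps load bulky procollagen into transport carriers, rose (log2 fold change 1.04, SE 0.18), in 4 of those 6 fits. CUL3 and SEC24D were higher without overlap at an unadjusted p under 0.05 but did not pass, and CUL3 passed without control replicate 3.

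**Figure D5:**
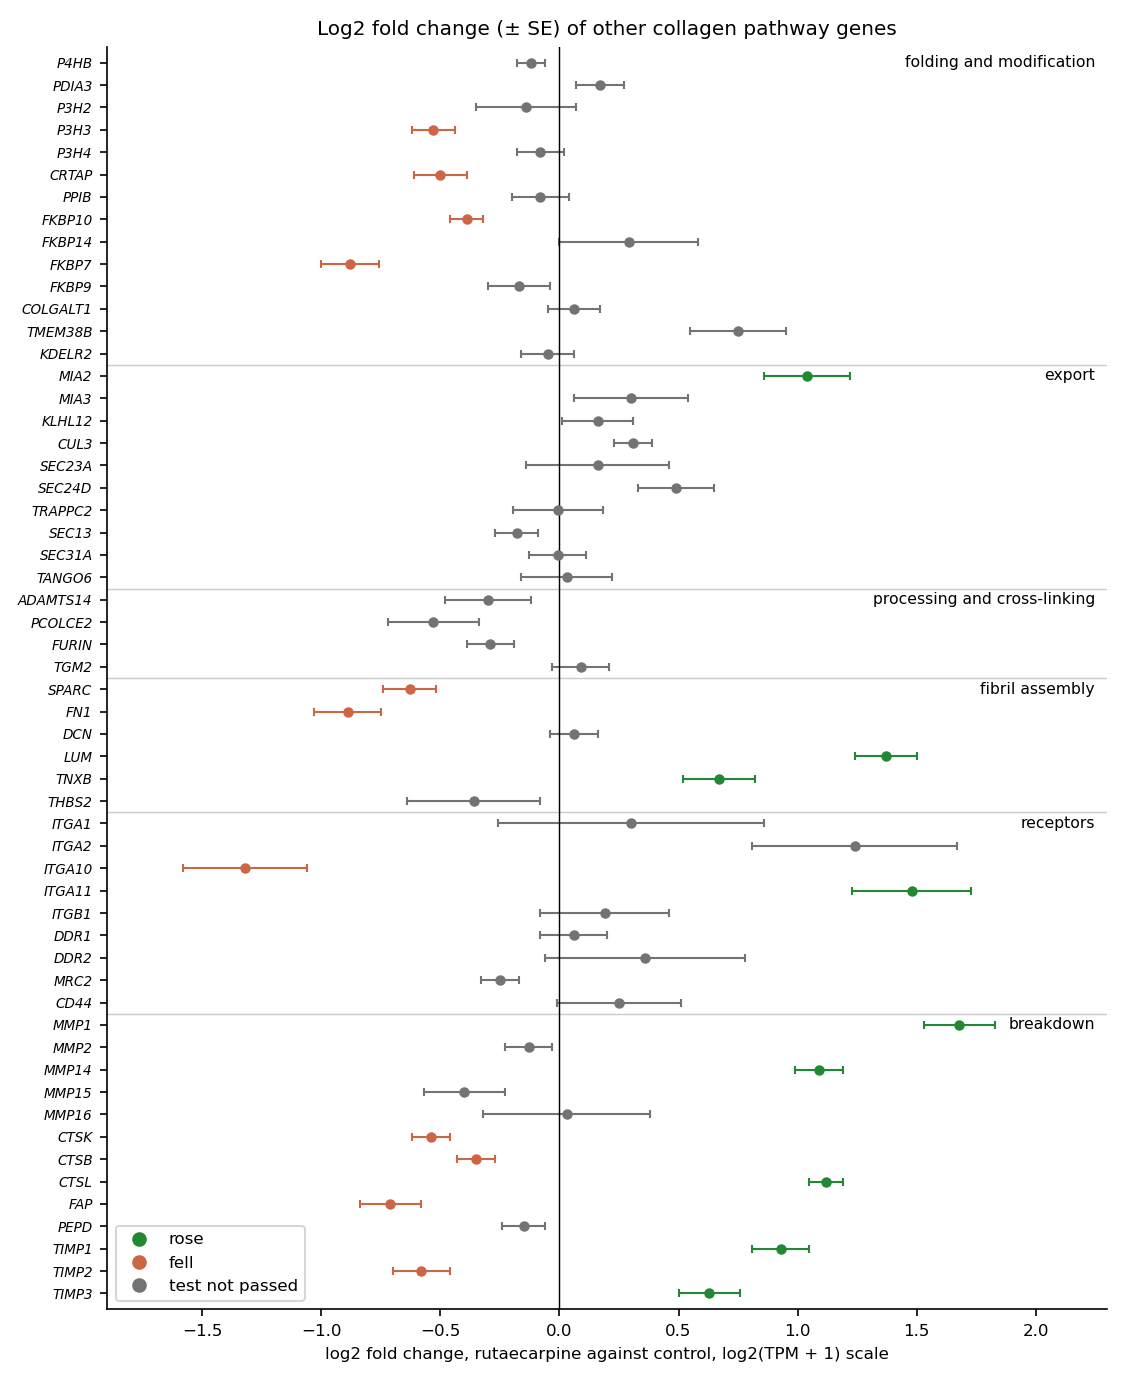
Log2 fold change on the log2(TPM + 1) scale (x axis, rutaecarpine against control, ± SE, all 6 libraries) of the 56 tested collagen pathway genes that are not members, in 6 functional groups separated by grey lines. Green points rose, orange points fell and grey points did not pass the test, with MMP1 at 1.68 and ITGA10 at -1.32 as the outermost calls.

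The 20 genes of the rule below 1 TPM in every library were COL2A1, COL3A1, COL4A1, COL4A3, COL4A4, COL6A5, COL6A6, COL8A2, COL9A1, COL9A3, COL11A2, COL14A1, COL17A1, COL18A1, COL19A1, COL20A1, COL23A1, COL24A1, COL26A1 and P4HA3, so COL3A1, whose type III collagen usually accompanies type I in soft tissue, did not reach that level. Kept but untested were COL11A1, COL21A1 and COL25A1, each of which reached 1 TPM only in controls. COL21A1 was at 5.72, 3.52 and 0.14 TPM in the controls and at 0.22, 0.43 and 0.45 TPM after rutaecarpine, and COL25A1 was at 2.01 TPM in control replicate 1 and at no more than 0.07 TPM in the other 5 libraries. The groups of both overlapped. The tested COL10A1 was as uneven, with 6.26, 3.80 and 0.62 TPM in the controls and 3.32, 2.83 and 0.69 TPM after rutaecarpine.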

How the data were processed

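RNA of U87 cells was sequenced by the authors in 3 solvent control and 3 rutaecarpine libraries, and the deposited values are gene-level TPM that the authors estimated with RSEM on GRCh38.p13, as named in the submitters' processing notes; the aligner, the annotation release and the strand setting are not given in the sources used here. TPM is scaled per library and per transcript length, so depth is unknown, and the columns of all genes sum to 990889 to 995734. Of the 60671 rows, 35671 have no gene name and could not match the symbols of the rule. The members and gene lists were chosen with earlier results of these data known.

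Values were taken to log2(TPM + 1). The 14377 genes that reached 1 TPM in 3 or more libraries were fitted with limma 3.58.1 (variance trend) in R 4.3.3, treatment being the only term, with Benjamini-Hochberg adjustment over all of them; an adjusted p of at most 0.05 was called, and fold changes understate those of low genes. The test was checked before use on simulated data with independent noise of the same spread in every library. That check does not cover a library like control replicate 3. Ratios and sums were compared with two-sided exact permutation tests. Alternatives were median centring, no trend, no filter, a filter requiring 1 TPM throughout, a pseudocount of 0.1, the replicate number as a block, each library left out, library weights (arrayWeights) and, added after the data were seen, a correction on transcript length and GC content (splines with 5 degrees of freedom, 14267 genes, longest transcript in GENCODE 29). Same-numbered deviations from the group means correlated at 0.116, -0.266 and -0.215. Deviations from a mean of 3 libraries are tied to each other, so these values cannot tell whether the numbers pair the libraries. Gene positions are from GENCODE 29 (GRCh38). Named were all members past the test or with a mean of at least 50 TPM in either group, the others by range with up to 3 per class, and of the pathway list the 4 largest called rises and falls and TIMP1, SPARC, P4HB, PPIB, MMP1, MMP2, MMP14, ITGA2 and ITGA11; further pathway and marker genes were named after their values were seen.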

Additional observations from a re-analysis of the deposited data

How the results depend on the processing

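Directions held for the 9 members that fell under every alternative run, and 6 of them (COL1A1, COL1A2, P4HA2, PCOLCE, LOXL1 and LOXL4) kept their call in each. The number of members past the test was 18 without control replicate 3 and 19 with library weights (18 lower, COL5A3 higher), against 9. Over all genes, 10.3% fell and 8.20% rose without control replicate 3, against 4.68% and 4.60% with all libraries. No such share was counted for library weights or the other alternatives. Their counts therefore cannot be set against all genes and are not read as results about the members. Leaving out 1 library gave 6 to 18 members, 2 to 10 chains, 4 to 8 enzymes, 5 to 8 members with a fold change beyond the limit, and 8 to 25 other pathway genes, against 9, 4, 5, 7 and 20. Chains past the test numbered 7 with centred libraries (PLOD1 lost its call, and COL5A1, COL8A1 and COL13A1 gained one), 11 with weights and 2 without rutaecarpine replicate 2, and enzymes 8 with weights. With the replicate block, 6 members, 2 chains, 4 enzymes and 5 other pathway genes (all higher) passed, and COL6A3, COL15A1 and PLOD1 lost their calls. COL6A3 also lost its call without a variance trend and without the filter on low values. The cause of these changes was not tested. The length and GC correction added COL8A1 and lost no member.

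Signs turned only for members that were not called. Leaving out 1 library gave log2 fold changes of -0.3785 to 0.2114 for COL27A1, -0.9597 to 0.1223 for COL10A1, -0.2209 to 0.1528 for COL4A5, -0.0181 to 0.0200 for COL6A2, -0.0808 to 0.1917 for COL7A1, -0.2536 to 0.0638 for P4HA1 and -0.0467 to 0.0452 for PLOD3, and log2 ratio differences of -0.0084 to 0.0952 for COL6A1 to COL6A2 and -0.3329 to 0.2776 for PLOD2 to PLOD1. Centred libraries gave -0.0701 for COL4A5, -0.0485 for COL6A1, -0.0298 for COL7A1 and -0.0902 for PLOD3. Library weights gave -0.153 for COL4A5, 0.0188 for COL6A2 and -0.0662 for COL7A1, and the length and GC correction -0.0163 for COL4A5 and 0.0376 for COL6A2.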

Other observations

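Among the members below 1 TPM in every library, COL3A1 and COL14A1 were singled out after their values were seen. COL3A1, the chain of type III collagen, was at 0.75, 0.58 and 0.69 TPM in the controls and at 0.09, 0.18 and 0.20 TPM after rutaecarpine. COL14A1, a fibril-associated chain, was at 0.67, 0.56 and 0.51 TPM in the controls and at 0.08, 0.11 and 0.13 TPM after rutaecarpine. Every treated library was lower for both, at levels under the filter, so neither was tested. COL28A1, whose row has no symbol in the table, lay between 0.09 and 0.30 TPM.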
